A study of Mus musculus with 12 samples.

Results

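The 10 matrix genes Aebp1, Ogn, Dcn, Lum, Bgn, Col1a1, Col1a2, Col3a1, Fmod and Igf2, which fibroblasts of the brain coverings express, were followed in whole-brain RNA of mice with mutations in Rorb. They were chosen by name, with earlier results of these data known, and their rows were found by Ensembl identifier among 38924 genes. All 10 passed the filter on low counts, which left 16493 genes for testing. Rorb encodes a nuclear receptor of the ROR family, and the mutant mice are known for a high-stepping gait. Each of the 4 genotypes was represented by 3 mice aged 6 weeks, with 1 library of polyadenylated RNA per mouse. The h1 mice were homozygous Rorb h1/h1 on C57BL/6J, and the h2 mice were homozygous Rorb h2/h2 on B6(Cg)-Tyrc-2J/J. The h4 mice were homozygous Rorb h4/h4 on B6.129S7-Il1r1tm1Imx/J, a strain with a targeted Il1r1 allele. The WT mice were C57BL/6J. WT shares its background strain with h1 only, so allele and strain cannot be told apart in h2 and h4.

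Fibroblasts of the dura, arachnoid and pia build a collagen-rich sheath around the brain, and related cells line its larger vessels. The rigid fibrils of this sheath are made of type I and type III collagen, and small leucine-rich proteoglycans bind the fibrils and set their width and spacing. Aebp1 encodes a secreted collagen-binding protein of connective tissue. Igf2 encodes an imprinted growth factor that the leptomeninges and the choroid plexus release, and it is no matrix component itself.

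Rorb itself lay between 22.5 and 33.4 CPM in the 6 h1 and h2 libraries and between 8.56 and 9.07 CPM in the 3 h4 libraries, against 16.3 to 18.5 CPM in the 3 WT libraries. CPM here means expected counts scaled to the library's total after TMM normalization, and the 12 libraries held 14513800 to 24694200 expected counts. Xist, the X-inactivation transcript, ranged from 786 to 911 CPM in 7 libraries, while the other 5 held no more than 1.36 CPM, and the labels give no sex. The 7 libraries with high Xist were h1 replicate 1, h2 replicate 2, h4 replicates 1 and 3, and all 3 WT replicates. Genotype and Xist class are therefore partly confounded, and each call below was repeated with Xist as a covariate and in the 7 high-Xist libraries alone.

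The promoters of Aebp1, Ogn, Col3a1 and Bgn are shown because these 4 genes were called higher in h4 brains. Each is the 250 bases before a start site given by RefSeq on GRCm38.p6, 5′ to 3′ on the gene's own strand, which is the plus strand for all 4. The windows are chr11:5861616-5861865, chr13:49607765-49608014, chr1:45311288-45311537 and chrX:73483351-73483600. Capitals mark matches, on either strand, to any of 4 short motifs. These were the TATA box TATAAA, the CCAAT box, the GC box, whose letters are GGGCGG, and AGGTCA, which is the core motif that ROR receptors bind.
Aebp1: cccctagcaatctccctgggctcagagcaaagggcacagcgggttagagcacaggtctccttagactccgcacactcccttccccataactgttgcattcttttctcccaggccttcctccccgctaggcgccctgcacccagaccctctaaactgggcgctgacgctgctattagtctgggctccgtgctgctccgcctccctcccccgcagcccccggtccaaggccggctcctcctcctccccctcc
Ogn: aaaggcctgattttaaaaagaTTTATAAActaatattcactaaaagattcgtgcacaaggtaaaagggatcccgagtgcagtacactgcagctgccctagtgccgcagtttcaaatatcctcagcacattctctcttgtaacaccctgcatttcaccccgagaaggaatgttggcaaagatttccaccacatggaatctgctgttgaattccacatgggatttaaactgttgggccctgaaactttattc
Col3a1: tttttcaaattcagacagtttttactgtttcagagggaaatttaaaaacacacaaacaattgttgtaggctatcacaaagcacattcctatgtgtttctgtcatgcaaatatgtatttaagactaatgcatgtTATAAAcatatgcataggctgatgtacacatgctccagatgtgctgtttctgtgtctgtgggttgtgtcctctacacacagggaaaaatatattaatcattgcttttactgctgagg
Bgn: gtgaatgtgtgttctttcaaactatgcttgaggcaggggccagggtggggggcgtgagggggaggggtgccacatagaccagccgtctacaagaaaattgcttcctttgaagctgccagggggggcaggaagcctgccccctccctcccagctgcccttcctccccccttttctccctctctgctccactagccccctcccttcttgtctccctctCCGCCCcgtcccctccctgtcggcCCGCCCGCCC
The Aebp1 window held none of the 4 motifs. Ogn had 2 overlapping TATAAA matches on opposite strands, at positions -229 and -227 from the start site, and Col3a1 had 1 at position -117. The Bgn window had 3 matches to GGGCGG on the minus strand, at positions -34, -10 and -6, of which the last 2 overlap. AGGTCA was absent from these 4 windows and occurred in 14.0% of 32851 mouse promoter windows of the same length. The shares were 12.4% for TATAAA, 33.8% for CCAAT and 32.7% for GGGCGG. Of the other members, Col1a2, Fmod and Igf2 had RefSeq entries, and Dcn, Lum and Col1a1 had none. AGGTCA was found in 1 of the 10 windows of the 7 members, the most distal Igf2 start site, on the strand opposite to the gene's own. A match is a string of letters and says nothing about binding.

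In the authors' TPM, which is scaled to transcript length, Igf2 was the most abundant of the 10 genes, with a mean of 61.5 ± 5.74 TPM (SD, n = 12), and Dcn followed with 31.7 ± 2.55 TPM. Their ranges over the 12 libraries, 50.4 to 71.6 TPM for Igf2 and 27.4 to 36.6 TPM for Dcn, did not overlap with each other or with any lower gene. Bgn averaged 18.3 TPM, Fmod 15.8 TPM, Col1a2 15.0 TPM, Aebp1 14.1 TPM and Ogn 12.2 TPM, and each of these ranges overlapped with the next. The 3 lowest were Col3a1 with 5.25 TPM, Col1a1 with 4.61 TPM and Lum with 3.85 TPM, again with overlapping ranges. Mean TPM was thus about as high for the proteoglycans Bgn and Fmod as for Col1a2. Over all 12 libraries the CPM of Aebp1 varied most, with a coefficient of variation of 17.2%, followed by Col3a1 with 15.0% and Ogn with 14.5%. Col1a2 varied least, with 5.18%.

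**Figure D1:**
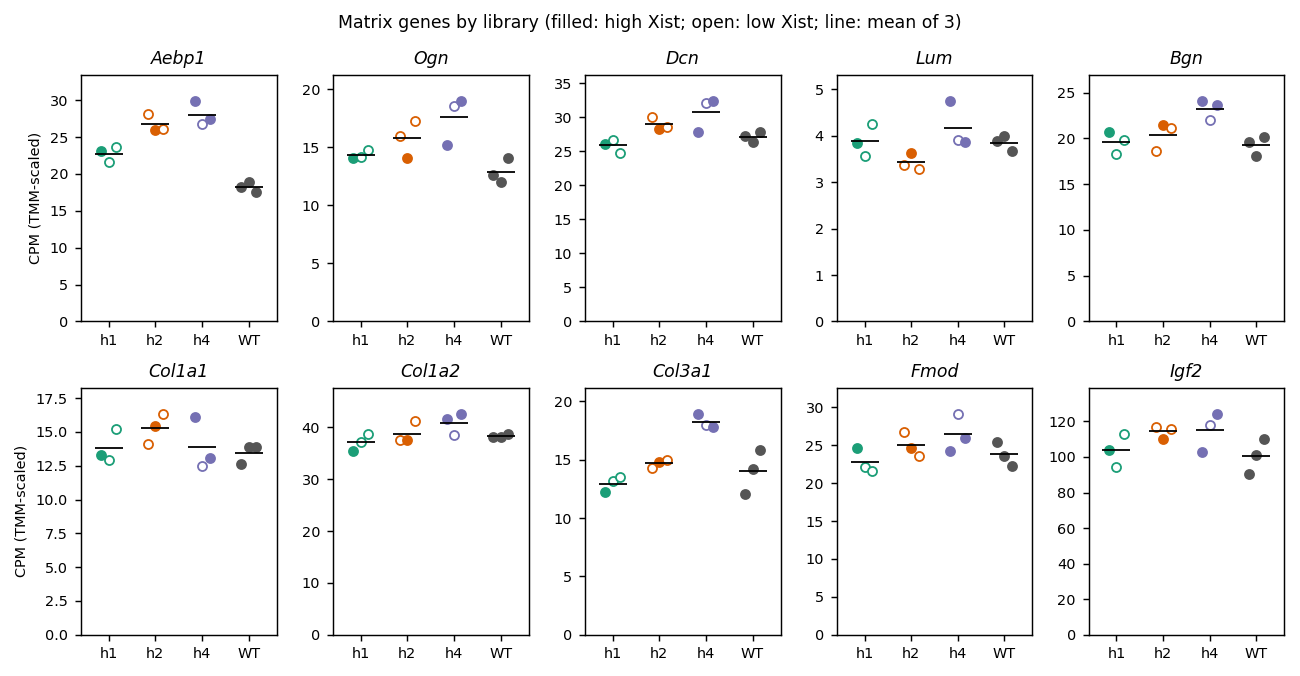
CPM of each of the 10 genes in every library, in h1, h2 and h4 brains and, at the right, in WT brains. Each point is 1 mouse, filled where Xist was high and open where it was low, and the line is the mean of 3. All 9 mutant libraries lie above the WT libraries for Aebp1, and the h4 points of Col3a1 lie above those of the other genotypes.

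Aebp1, which encodes the collagen-binding protein ACLP, was called higher in each of the 3 mutants, and no other member was called in more than 1 mutant. Its level was 23.1, 21.6 and 23.6 CPM in the h1 libraries, 28.2, 26.0 and 26.1 CPM in the h2 libraries and 29.9, 26.8 and 27.5 CPM in the h4 libraries, against 18.3, 18.9 and 17.6 CPM in the WT libraries. Every mutant library lay above every WT library, and the h1 libraries lay below all h2 and h4 libraries. In bulk brain RNA, more cells that express a gene and more of its RNA per cell cannot be told apart. On the log2 scale Aebp1 stood 0.62 above WT in h4, with an SE of 0.0662 and an edgeR adjusted p of 1.55e-06, a level 1.54-fold that of WT with a 95% interval of 1.40 to 1.69. It was 0.55 in h2 (SE 0.0659, adjusted p = 5.58e-05) and 0.32 in h1 (SE 0.0664, adjusted p = 0.0173). The 3 contrasts use the same WT libraries and are not independent of each other. The mean of the 3 mutants stood 0.49 above WT on the log2 scale (SE 0.0551, adjusted p = 7.68e-06).

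The rise of Aebp1 in h2 and h4 kept its call in every fit that left out 1 library and in all other alternatives, while that in h1 did not. With Xist as a covariate the h1 value was 0.33 (adjusted p = 0.0697), in the high-Xist libraries alone, where h1 had 1 library, 0.34 (adjusted p = 0.389), and with limma on TPM 0.28 (adjusted p = 0.315). Without WT replicate 1 it was 0.32 (adjusted p = 0.121), without WT replicate 3 0.29 (adjusted p = 0.0629), without h1 replicate 1 0.30 (adjusted p = 0.0583) and without h1 replicate 3 0.29 (adjusted p = 0.108). In the fits that lost the call the sizes thus stayed between 0.28 and 0.34, and only the adjusted p crossed the threshold. The highest value without 1 library was 0.35, without h1 replicate 2. High-Xist libraries had 23.1 CPM of Aebp1 in h1, 26.0 CPM in h2 and 27.5 and 29.9 CPM in h4, so that the order of the genotypes was the same within that class, with WT at 17.6 to 18.9 CPM. Relative to the other 9 genes, Aebp1 reached 8.94 ± 0.113 per 100 CPM in h1, 9.68 ± 0.476 in h2 and 9.71 ± 1.0 in h4, against 7.22 ± 0.530 in WT (SD, n = 3 each). Aebp1 lies on the plus strand of chromosome 11, chr11:5861947-5872088 in the GENCODE M21 annotation of GRCm38. None of its 6 nearest tested neighbours was called in any mutant against WT, neighbours being looked up after the values were seen.

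Ogn encodes osteoglycin, also called mimecan, a small leucine-rich proteoglycan. It had 15.2, 18.6 and 19 CPM in the h4 libraries, against 12.6, 12 and 14.1 CPM in the WT libraries. The 2 groups did not overlap, and h4 replicate 1 was the lowest of its group. The log2 fold change in h4 was 0.45 (SE 0.0920, adjusted p = 0.00406), or 1.37-fold with a 95% interval of 1.2 to 1.56. The call held in all 12 fits without 1 library and was lost with limma on TPM, where the value was 0.41 (adjusted p = 0.0829).

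The h2 libraries had 16.0, 14.1 and 17.3 CPM of Ogn and the h1 libraries 14.1, 14.2 and 14.8 CPM, and neither group was called against WT. Their log2 fold changes were 0.29 in h2 (95% interval 0.11 to 0.48, adjusted p = 0.151) and 0.16 in h1 (-0.03 to 0.35, adjusted p = 0.611). The mean of the 3 mutants was called at 0.30 (SE 0.0760, adjusted p = 0.0463). That call was lost in 9 of 12 fits without 1 library, namely without WT replicate 1 or 2, any h1 replicate, h2 replicate 1 or 3, or h4 replicate 2 or 3. The values in those fits were 0.25 to 0.30, with adjusted p from 0.0601 to 0.35. It was lost with Xist as a covariate too, at 0.22 (adjusted p = 0.328), in the high-Xist libraries, at 0.22 (adjusted p = 0.397), and with limma on TPM, at 0.27 (adjusted p = 0.301). Ogn occupies chr13:49608046-49624501, where Cenpp, a centromere gene on the opposite strand, overlaps it. Cenpp was at 0.559 to 1.31 CPM, and since the library kit does not mark strand, reads shared by the pair cannot be assigned by strand.

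Among the fibrillar collagens, the type III gene Col3a1 rose in h4 brains and the type I genes did not pass the test. Col3a1 had 18.9, 18.0 and 17.8 CPM in the h4 libraries, against 12.1, 14.2 and 15.8 CPM in the WT libraries. All h4 libraries were higher than all WT libraries, and WT had the widest spread of the 4 genotypes. Col3a1 thus stood 0.38 above WT on the log2 scale, with an SE of 0.0843 and an adjusted p of 0.00823, or 1.3-fold with a 95% interval of 1.15 to 1.47. In h2 the libraries held 14.3, 14.8 and 15.0 CPM and in h1 12.2, 13.2 and 13.5 CPM. Both groups overlapped with WT, with log2 fold changes of 0.07 in h2 (-0.10 to 0.25, adjusted p = 0.823) and -0.11 in h1 (-0.29 to 0.07, adjusted p = 0.739). The h4 call was lost without WT replicate 1, at 0.29 (adjusted p = 0.0937), without h4 replicate 1, at 0.35 (adjusted p = 0.0543), and with limma on TPM, at 0.35 (adjusted p = 0.137).

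Col1a1 and Col1a2 encode the chains of type I collagen, the main fibril protein of bone, tendon and meninges. Col1a1 had 13.3, 12.9 and 15.2 CPM in h1, 14.1, 15.4 and 16.3 CPM in h2 and 16.1, 12.5 and 13.1 CPM in h4, against 12.6, 13.9 and 13.9 CPM in WT. The h2 libraries lay just above the WT libraries, while those of h1 and h4 overlapped with WT. Its log2 fold changes were 0.04 in h1 (-0.15 to 0.23), 0.19 in h2 (-0.00 to 0.38, adjusted p = 0.44) and 0.05 in h4 (-0.15 to 0.24). Col1a2 had 35.5, 37.1 and 38.7 CPM in h1, 37.6, 37.5 and 41.2 CPM in h2 and 41.5, 38.6 and 42.5 CPM in h4, against 38.2, 38.2 and 38.7 CPM in WT. Each mutant overlapped with WT, and the 95% interval of the log2 fold change was -0.02 to 0.21 in h4. It spanned -0.10 to 0.13 in h2, while in h1 it ran from -0.16 up to 0.07. The ratio of Col3a1 to Col1a1 in TPM was 1.26, 1.54 and 1.46 in the h4 libraries, against 1.03, 1.09 and 1.22 in the WT libraries, without overlap. It averaged 1.01 ± 0.0756 in h1 and 1.05 ± 0.0546 in h2 (SD, n = 3 each). The ratio of Col1a2 to Col1a1 averaged 3.52 ± 0.474 in h4, 3.10 ± 0.0893 in h2 and 3.11 ± 0.159 in h1, against 3.32 ± 0.128 in WT, with overlap between h4 and WT.

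Col3a1 lies at chr1:45311538-45349706, which is 4.99 Mb from Il1r1, the gene targeted in the background strain of h4. Its neighbour Col5a2, which encodes a type V collagen chain, lies 24.6 kb away and had a log2 fold change of 0.13 in h4 against WT (adjusted p = 0.553). None of the 6 nearest tested neighbours of Col3a1 was called in any mutant against WT. Fmod is on the same chromosome, 93.7 Mb from Il1r1, and Igf2 is 55.2 Mb from Tyr, the gene altered in the background strain of h2. Whether strain DNA near Il1r1 bears on Col3a1 was not tested.

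Of the other proteoglycans, Bgn was called higher in h4 and in no other mutant, and Dcn, Lum and Fmod were not called in any mutant against WT. Bgn encodes biglycan, which carries glycosaminoglycan chains and binds collagen. It had 24.1, 22.0 and 23.7 CPM in the h4 libraries, against 19.6, 18.1 and 20.2 CPM in the WT libraries, without overlap. Bgn thus stood 0.27 above WT on the log2 scale, with an SE of 0.0729 and an adjusted p of 0.0313, or 1.2-fold with a 95% interval of 1.09 to 1.34. The h2 libraries had 18.6, 21.5 and 21.1 CPM and the h1 libraries 20.7, 18.3 and 19.8 CPM. Both groups overlapped with WT, with log2 fold changes of 0.09 (-0.06 to 0.24) in h2 and 0.02 (-0.13 to 0.17) in h1. The h4 call was lost without WT replicate 1, at 0.28 (adjusted p = 0.0913), and without WT replicate 2, at 0.23 (adjusted p = 0.173). It was also lost without h4 replicate 1, at 0.24 (adjusted p = 0.148), without h4 replicate 3, at 0.25 (adjusted p = 0.118), and with limma on TPM, at 0.34 (adjusted p = 0.122). The authors' effective length of Bgn averaged 2045 ± 103 bases in h4, against 2192 ± 31.6 bases in WT (SD, n = 3 each), so that the TPM scale enlarged the difference, with 21.1 ± 1.2 TPM in h4 and 16.7 ± 0.892 TPM in WT. Bgn is X-linked, at chrX:73483602-73495933, and with Xist as a covariate its h4 value was 0.31 (adjusted p = 0.0137).

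Dcn encodes decorin, a close relative of biglycan that binds collagen fibrils and growth factors. It had 27.8, 32.1 and 32.4 CPM in the h4 libraries, against 27.3, 26.4 and 27.8 CPM in the WT libraries. The values of h4 replicate 1 and WT replicate 3 coincided at 27.8 CPM, and the log2 fold change of 0.18 (95% interval 0.05 to 0.31) was not called, with an unadjusted p of 0.00887 and an adjusted p of 0.113. The h2 libraries had 30.04, 28.3 and 28.6 CPM and the h1 libraries 26.1, 26.7 and 24.8 CPM. The h2 values lay above all WT values, with a log2 fold change of 0.09 (-0.04 to 0.22), and h1 overlapped with WT, with -0.07 (-0.20 to 0.06). Lum, the lumican gene, lies 47.0 kb from Dcn on chromosome 10 and was the least abundant member. It had 3.85, 3.56 and 4.25 CPM in h1, 3.38, 3.62 and 3.29 CPM in h2 and 4.75, 3.91 and 3.86 CPM in h4, against 3.89, 4.00 and 3.67 CPM in WT. The h2 libraries lay just below the WT libraries, and those of h1 and h4 overlapped with WT. Its lowest library held 49 counts, and the interval of its log2 fold change was correspondingly wide, at -0.45 to 0.12 in h2 and -0.17 to 0.40 in h4. Fmod encodes fibromodulin, which binds collagen and steers its cross-linking. It had 24.6, 22.1 and 21.6 CPM in h1, 26.7, 24.7 and 23.6 CPM in h2 and 24.2, 29.1 and 26.0 CPM in h4, against 25.5, 23.6 and 22.3 CPM in WT. All 3 mutants overlapped with WT, and the log2 fold change was largest in h4, at 0.15 (-0.00 to 0.30, adjusted p = 0.301).

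Igf2 had 104, 94.6 and 113 CPM in h1, 117, 110.1 and 116 CPM in h2 and 103, 118 and 124 CPM in h4, against 90.2, 101 and 110.3 CPM in WT. The h4 and h1 libraries overlapped with WT, and h2 replicate 2 lay just below the highest WT library. The log2 fold changes were 0.05 in h1 (-0.16 to 0.27, adjusted p = 0.913), 0.19 in h2 (-0.03 to 0.40, adjusted p = 0.514) and 0.19 in h4 (-0.03 to 0.41, adjusted p = 0.348). Igf2 made up 37.5% of the summed CPM of the 10 genes in h1, 37.7% in h2 and 36.0% in h4, against 36.9% in WT. Its antisense gene Igf2os was at 0.281 to 0.820 CPM, and the 2 cannot be separated by strand in these libraries.

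**Figure D2:**
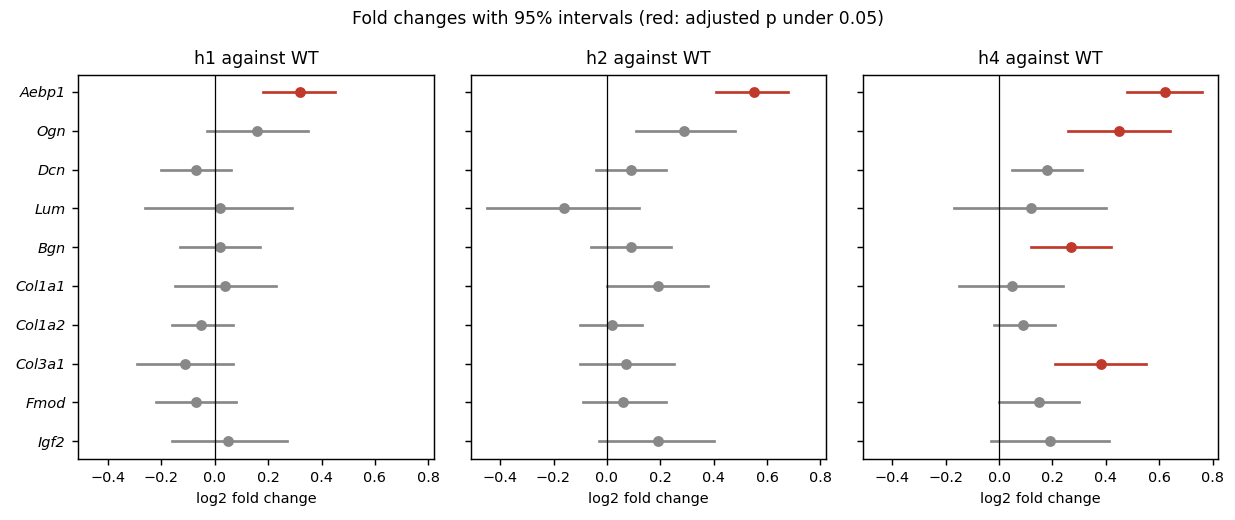
Log2 fold change of each of the 10 genes in h1, h2 and h4 against WT, as a point with its 95% interval, red where the adjusted p was under 0.05. Aebp1 is red in all 3 panels, and Ogn, Bgn and Col3a1 are red only in the h4 panel.

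Counted together, 4 of the 10 genes rose in h4 and none fell, where 4.55% of all genes tested were called in either direction and 1.64% were called higher. Because the 10 genes were chosen with earlier results of these data known, their counts and these shares are not an independent comparison. In h2 the count was 1 of 10, Aebp1, against 0.679% of all genes called and 0.340% called higher. In h1 it was again Aebp1 alone, against 0.625% of all genes called and 0.418% called higher. For the mean of the 3 mutants it was 2 of 10, Aebp1 and Ogn, against 1.10% of all genes called and 0.485% called higher. The libraries did not overlap with WT for 4 members in h4 (21.2% of all genes tested), 5 members in h2 (15.6%) and 2 members in h1 (14.5%), and all 9 mutant libraries lay on one side of WT for 2 members, Aebp1 and Ogn (1.92%). For Ogn this separation was narrow, since the lowest h2, the lowest h1 and the highest WT library all stood at 14.1 CPM after rounding. The median log2 fold change of the 10 genes was 0.19 in h4, against 0.01 for all genes tested, 0.09 in h2, against 0.00, and 0.02 in h1, against 0.00. Point estimates were above 0 for 10 members in h4, 9 in h2 and 6 in h1. The 95% interval lay above 0 for Aebp1 in all 3 mutants and for Ogn in h2 and h4. It did so for Dcn, Bgn and Col3a1 in h4 only, and every other interval against WT spanned 0.

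The summed level of the 10 genes was 278, 264 and 289.7 CPM in the h1 libraries, 306, 296 and 309 CPM in the h2 libraries and 305, 319 and 329.7 CPM in the h4 libraries, against 260.3, 270.2 and 284 CPM in the WT libraries. The h2 and h4 libraries all lay above the WT libraries, and the h1 libraries overlapped with them. Without Aebp1 the sum was 277 ± 6.20 CPM in h2 and 289.9 ± 13.8 CPM in h4, against 253 ± 12.5 CPM in WT (SD, n = 3 each). Igf2 is the largest part of either sum.

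Between the mutants, h4 was higher than h1 for 4 of the 10 genes, where 4.64% of all genes tested were called and 2.11% were called higher. These were Col3a1, with a log2 difference of 0.49 (SE 0.0847, adjusted p = 0.00117), Aebp1, with 0.30 (SE 0.0646, adjusted p = 0.00636), Dcn, with 0.25 (SE 0.0637, adjusted p = 0.0215), and Bgn, with 0.25 (SE 0.0725, adjusted p = 0.0481). The h4 and h1 libraries of each of the 4 did not overlap, nor did those of Ogn, whose difference of 0.29 was not called (adjusted p = 0.0588). That made 5 members without overlap, against 24.1% of all genes. Col3a1 was called in all 12 fits without 1 library and in the high-Xist libraries, where the difference was 0.58 (adjusted p = 0.0437). Aebp1 lost its call without h4 replicate 1, at 0.25 (adjusted p = 0.0629). Dcn lost it without h1 replicate 3, at 0.22 (adjusted p = 0.118), without h4 replicate 2, at 0.22 (adjusted p = 0.0789), and without h4 replicate 3, at 0.21 (adjusted p = 0.125). Bgn lost it without WT replicate 1, h1 replicate 2 or 3, h2 replicate 2 or 3, or h4 replicate 1 or 3, at 0.20 to 0.25 with adjusted p from 0.0525 to 0.201. Bgn also lost it with RLE size factors (0.24, adjusted p = 0.0506), DESeq2 (0.24, adjusted p = 0.0849) and Xist as a covariate (0.21, adjusted p = 0.116). With limma on TPM none of the 4 was called, at differences of 0.25 to 0.49 with adjusted p from 0.0624 to 0.17. Ogn gained a call without h4 replicate 1, at 0.39 (adjusted p = 0.0293), with Xist as a covariate, at 0.34 (adjusted p = 0.03), and without the low-count filter, at 0.28 (adjusted p = 0.0319). In the high-Xist libraries Aebp1 (0.31, adjusted p = 0.177), Dcn (0.20, adjusted p = 0.452) and Bgn (0.20, adjusted p = 0.462) were not called.

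Against h2, h4 was higher for 1 member, Col3a1, at 0.31 (SE 0.0842, adjusted p = 0.0383), where 3.22% of all genes were called and 1.54% were called higher. That call was lost when any h2 or h4 library was left out, at 0.28 to 0.32 with adjusted p from 0.0672 to 0.15, and with DESeq2, at 0.31 (adjusted p = 0.0645). The h4 and h2 libraries did not overlap for 3 members, Col3a1, Bgn and Lum, against 21.6% of all genes. Lum had 4.75, 3.91 and 3.86 CPM in h4 and 3.38, 3.62 and 3.29 CPM in h2, and its difference of 0.28 (-0.01 to 0.57, adjusted p = 0.309) was not called. For Aebp1 the difference of h4 over h2 was 0.07 with a 95% interval of -0.06 to 0.20. Between h2 and h1 no member was called by edgeR or DESeq2, where 0.722% of all genes were called by edgeR. At an unadjusted p under 0.05, 3 members differed (9.49% of all genes), namely Aebp1, with 0.23 (adjusted p = 0.0955), Dcn, with 0.16 (adjusted p = 0.336), and Col3a1, with 0.18 (adjusted p = 0.502). The h2 and h1 libraries of these 3 did not overlap, against 15.5% of all genes. Pairs that share a genotype share its libraries.

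**Figure D3:**
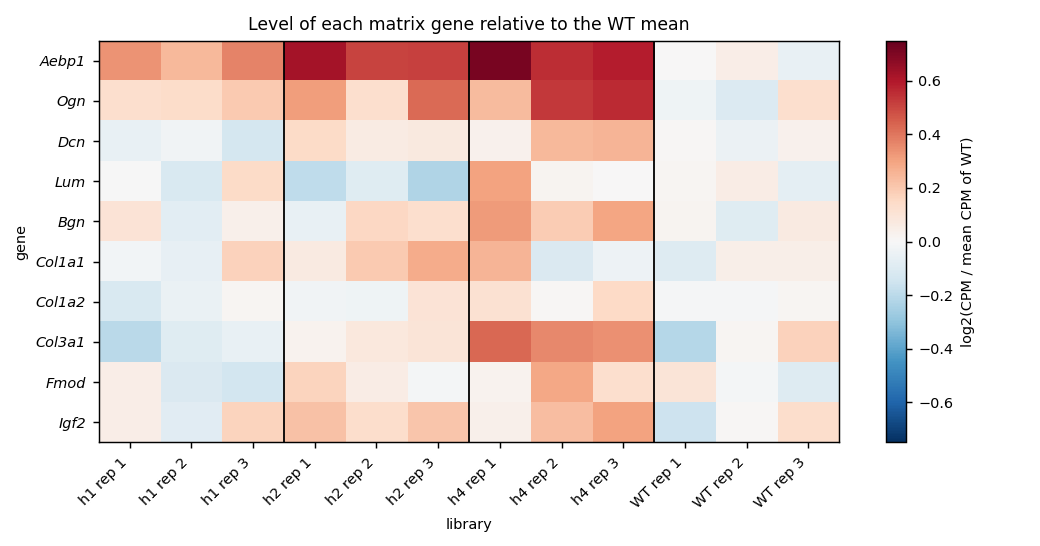
Level of each of the 10 genes (rows) in each library (columns), h1, h2 and h4 before WT, as log2 of CPM over the mean CPM of the WT libraries. Red is higher and blue is lower than the WT mean. Aebp1 is red in all 9 mutant columns, and h4 replicate 1 differs from h4 replicates 2 and 3 in Ogn, Dcn, Lum and Col1a1.

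Among mice of the same genotype, the correlations of the 10 genes with each other showed no common direction. Over the 12 libraries the median Pearson correlation of log2 CPM among the 45 pairs of members was 0.42, and 39 pairs were above 0. After subtraction of each genotype's mean the median was 0.04, and 23 pairs were above 0. Highest then were Aebp1 with Lum (0.74), Lum with Col1a1 (0.73) and Ogn with Igf2 (0.70). Lowest were Dcn with Lum (-0.91), although these genes are neighbours, Dcn with Col1a1 (-0.88) and Col1a1 with Fmod (-0.81). All pairs share the same 12 libraries and their depth, and these values are descriptions. Spread within a genotype was small, for Aebp1 a coefficient of variation of 3.40% to 5.76%, and counting error is part of it. A shared movement of that size could therefore be hidden. In h4 the contrast of Dcn with Lum and Col1a1 is visible in single mice. Replicate 1 had 27.8 CPM of Dcn, 15.2 CPM of Ogn, 16.1 CPM of Col1a1 and 4.75 CPM of Lum. Replicates 2 and 3 had 32.1 and 32.4 CPM of Dcn, 18.6 and 19 CPM of Ogn, 12.5 and 13.1 CPM of Col1a1 and 3.91 and 3.86 CPM of Lum. Replicate 1 was thus low in the first pair of genes and high in the other.

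Of 14 other fibril-forming and fibril-associated collagens, 3 rose in h4 against WT and none fell, where 1.64% of all genes tested were called higher and 4.55% in either direction. Col27a1, a fibrillar collagen gene of cartilage, averaged 16.6 CPM in h4 and 12.4 CPM in WT (log2 fold change 0.42, adjusted p = 0.0035). Col16a1, whose product associates with fibrils, averaged 21.9 CPM in h4 and 16.9 CPM in WT (0.37, adjusted p = 0.00765). Col5a1, whose product starts type I fibrils, averaged 19.9 CPM in h4 and 16.3 CPM in WT (0.29, adjusted p = 0.0156). The median log2 fold change of the list was 0.14. Left-out libraries changed 2 of these calls, with Col16a1 lost without WT replicate 1 or h4 replicate 1 (0.29 at the lowest, adjusted p up to 0.0819) and Col5a1 without WT replicate 1 or 3 or h4 replicate 1 or 2 (0.25 at the lowest, adjusted p up to 0.0751).

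In h4 against WT, 4.55% of all genes tested were called in either direction and 1.64% were called higher. Each count in this paragraph is to be set beside these shares. Of 23 tested genes of collagen maturation and cross-linking, 2 rose in h4 and none fell, with a list median of 0.05. They were Bmp1, the procollagen C-proteinase, at 61.3 CPM in h4 and 53.3 CPM in WT (0.20, adjusted p = 0.0134), and P4ha3, a prolyl hydroxylase subunit, at 5.21 CPM in h4 and 3.68 CPM in WT (0.50, adjusted p = 0.0423). Bmp1 lost its call without WT replicate 1 or h4 replicate 3 (0.16 at the lowest, adjusted p up to 0.112). P4ha3 kept it in 5 of 12 fits without 1 library, those without WT replicate 3, h1 replicate 1, h2 replicate 1 or 3, or h4 replicate 1, and in the others its adjusted p rose to as much as 0.246. Of 32 genes of basement membrane and microfibrils, tenascin-C (Tnc) rose, with 20.1 CPM in h4 and 14.1 CPM in WT (0.51, adjusted p = 0.0215). Col4a1, a chain of basement membrane collagen, fell, with 50.8 CPM in h4 and 58.2 CPM in WT (-0.20, adjusted p = 0.0263). Tnc lost its call without WT replicate 1 or 2 or h4 replicate 1 or 3 (adjusted p up to 0.0964), and Col4a1 without WT replicate 2 or h4 replicate 1 (adjusted p up to 0.172). None of 10 tested genes for other small leucine-rich proteoglycans was called, and Kera, the keratocan gene, stayed under 3 counts in each library. None of 17 genes of the TGF-beta system, which drives matrix production in many fibroblasts, was called either. In the insulin-like growth factor system 1 of 13 tested genes fell, the receptor gene Igf1r, with 23.3 CPM in h4 and 28.5 CPM in WT (-0.29, adjusted p = 0.0386), whose libraries overlapped. The Igf1r call was lost without WT replicate 1 or 2, h1 replicate 1, h2 replicate 3, or h4 replicate 1 or 3 (adjusted p up to 0.218).

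In h2, where 0.679% of all genes tested were called, the only gene of these 6 lists called against WT was Igfbp3, for an IGF carrier protein. It averaged 11.6 CPM in h2 and 15.7 CPM in WT (-0.43, adjusted p = 0.0246). The call was lost without WT replicate 2 or h2 replicate 1 or 3 (adjusted p up to 0.205). No gene of these lists was called in h1 against WT. For the mean of the 3 mutants Col4a1 (-0.20, adjusted p = 0.016) and Col4a2 (-0.17, adjusted p = 0.0415) fell, and no gene of the lists rose. Of all genes tested, 1.10% were called in that contrast. The Col4a1 call was lost without WT replicate 1 or 2 (adjusted p up to 0.184), and the Col4a2 call without WT replicate 1 or 2, h1 replicate 2, h2 replicate 2, or h4 replicate 1 or 3 (adjusted p up to 0.349). Against h1, h4 was higher for Col5a1 (0.36, adjusted p = 0.0036), Col27a1 (0.31, adjusted p = 0.0293), Col16a1 (0.29, adjusted p = 0.0329), Bmp1 (0.17, adjusted p = 0.0411), Tnc (0.71, adjusted p = 0.00326) and the microfibril collagen gene Col6a3 (0.37, adjusted p = 0.0483). Col5a1 and Tnc kept this call in all 12 fits without 1 library. Col27a1 lost it without h1 replicate 2 or 3 or h4 replicate 1 or 3 (adjusted p up to 0.165), Col16a1 without h1 replicate 2 or 3 or h4 replicate 1 or 2 (adjusted p up to 0.21), and Bmp1 without any 1 of the h1 replicates or h4 replicate 2 or 3 (adjusted p up to 0.206). Col6a3 kept it in 4 of 12, those without WT replicate 3, h2 replicate 1 or 3, or h4 replicate 2, with adjusted p up to 0.194 in the others, and lost it in each of the 6 alternative fits. Against h2, h4 was higher for Tnc (0.48, adjusted p = 0.038) and for Sparc, which encodes a collagen chaperone (0.15, adjusted p = 0.028). The Tnc call was lost without WT replicate 1, h1 replicate 1, h2 replicate 1 or 2, or h4 replicate 1 or 3 (adjusted p up to 0.165), and the Sparc call without h2 replicate 1 or 2 or any 1 of the h4 replicates (adjusted p up to 0.127). Against h1, h2 was lower for Sparc (-0.18, adjusted p = 0.0177), Igfbp3 (-0.39, adjusted p = 0.047) and the TGF-beta target Ccn2 (-0.34, adjusted p = 0.0262). Sparc lost this call without h1 replicate 1 or h2 replicate 1 or 2 (adjusted p up to 0.114), Igfbp3 without any 1 of the h1 replicates, h2 replicate 1 or 3, or h4 replicate 1 (adjusted p up to 0.268), and Ccn2 without any 1 of the h1 replicates or h2 replicate 1 or 2 (adjusted p up to 0.193). The share of all genes tested that was called ran from 0.625% in h1 against WT to 4.64% in h4 against h1. Over the 7 contrasts, 41 calls were made in these lists and the cell marker lists described next. Of these, 4 held in every fit without 1 library, namely Col27a1 in h4 against WT, Col5a1 and Tnc in h4 against h1, and Cldn5 in h2 against h1. With Xist as a covariate 22 of the 41 held, in the high-Xist libraries 14, with DESeq2 35, and with limma on TPM 1, which was Cldn5 in h2 against h1.

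**Figure D4:**
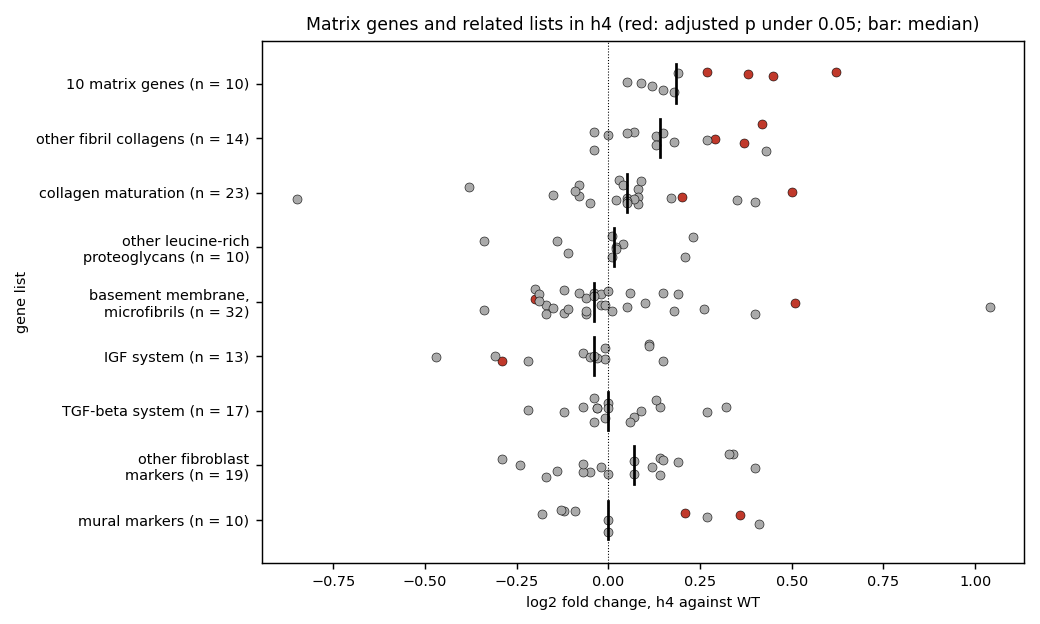
Log2 fold change in h4 against WT for the 10 matrix genes and 8 related lists, 1 point per gene, red where the adjusted p was under 0.05, with a bar at the list's median. The median is 0.19 for the 10 matrix genes and 0.14 for the other fibril collagens, and 0.07 for the other fibroblast markers, of which none is red.

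No marker of fibroblasts other than the 10 genes was called higher in a mutant against WT. Their summed level was 202–221 CPM over the h1 libraries, 211–218 CPM over h2 and 216–223 CPM over h4, against 213–230.3 CPM over WT, so that all groups overlapped with WT. Pdgfra, with a median of 71.4 CPM over the 12 libraries, was the largest part of these sums. All 20 of these markers had at least 3 counts somewhere, including the transcription factors Foxc1, at 3.70 to 6.35 CPM, and Tbx18, at 2.77 to 4.56 CPM. Of 19 tested, none was called in h2 or h4 against WT. Closest to a call in h4 was Slc22a6, at 0.34 without overlap (adjusted p = 0.0517). Point estimates in h4 were up for 10 of these markers and down for 9. In h1, where 0.625% of all genes tested were called, 2 fell. These were Slc6a13, a GABA transporter gene of the leptomeninges, with 12.4 CPM in h1 and 17.1 CPM in WT (-0.47, adjusted p = 0.00865), and Aldh1a2, for a retinoic acid enzyme, with 11.9 CPM in h1 and 16.7 CPM in WT (-0.49, adjusted p = 0.0109). Both calls were lost without h1 replicate 2, with adjusted p of 0.13 and 0.137, and with Xist as a covariate. Aldh1a2 was also lower in the mean of the 3 mutants (-0.38, adjusted p = 0.011), which was lost without WT replicate 2 (adjusted p = 0.101). Pdgfra, which oligodendrocyte precursors express as well, was lower than in h1 in h2 (-0.18, adjusted p = 0.0269) and in h4 (-0.14, adjusted p = 0.0484). The h2 call was lost whichever single h2 or h1 library was left out (adjusted p up to 0.103), and the h4 call was kept in 2 of 12 fits, those without WT replicate 3 or h2 replicate 1, with adjusted p up to 0.194 in the others.

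Among markers of vessels, 2 of 10 mural genes rose in h4, where 1.64% of all genes tested were called higher. In h1, where 0.625% of all genes tested were called, 2 of 10 endothelial genes fell. Other members of both lists went the other way. Point estimates were up for 5 and down for 5 mural markers in h4 (median 0.00). For endothelial markers in h1 they were up for 4 and down for 6 (median -0.11). These calls against WT were lost with Xist as a covariate. The 10 mural markers summed to 295–315 CPM over the h1 libraries, 315–320.1 CPM over h2 and 314–334 CPM over h4, against 300.1–334 CPM over WT. Of these, 2 rose in h4 against WT, the smooth muscle myosin gene Myh11 (0.36, adjusted p = 0.0418) and the pericyte gene Vtn (0.21, adjusted p = 0.0424), whose calls held in 4 and 3 of 12 fits without 1 library. Myh11 kept its call without WT replicate 3, h1 replicate 1, or h2 replicate 1 or 2, and Vtn without WT replicate 3 or h2 replicate 1 or 2, with adjusted p in the other fits up to 0.225 for Myh11 and 0.235 for Vtn. Against h1, Myh11 was higher in h4 (0.47, adjusted p = 0.00965) and Pdgfrb in h2 (0.38, adjusted p = 0.0252). The Myh11 call was lost without h1 replicate 2 or 3 (adjusted p up to 0.0596), and the Pdgfrb call without h2 replicate 1 or 2 or h1 replicate 2 or 3 (adjusted p up to 0.188). The 10 endothelial markers summed to 477–506 CPM over the h1 libraries, 447–451 CPM over h2 and 462–474 CPM over h4, against 460.4–479.9 CPM over WT. The tight junction gene Cldn5 (-0.57, adjusted p = 0.0115) and Cdh5 (-0.34, adjusted p = 0.0183) fell in h1, and Cldn5 was higher than in h1 in h2 (0.81, adjusted p = 0.00107) and in h4 (0.40, adjusted p = 0.033), and lower in h4 than in h2 (-0.41, adjusted p = 0.029). In h1 against WT the Cldn5 call was lost without WT replicate 1 (adjusted p = 0.121) and the Cdh5 call without WT replicate 1 or 3 or h1 replicate 2 or 3 (adjusted p up to 0.137). Cldn5 kept its call in h2 against h1 in all 12 fits without 1 library. It lost that in h4 against h1 without WT replicate 1, h1 replicate 2 or 3, h2 replicate 2, or h4 replicate 2 or 3 (adjusted p up to 0.129), and that in h4 against h2 without h2 replicate 1 or 2 or any 1 of the h4 replicates (adjusted p up to 0.117).

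The 11 choroid plexus markers, whose epithelium also releases Igf2, summed to 1472–1616 CPM over the h1 libraries, 1503–1686 CPM over h2 and 1343–1715 CPM over h4, against 1287–1517 CPM over WT. Enpp2 and Ttr, with medians of 772 and 649.7 CPM over the 12 libraries, made up most of these sums. Of the 11 markers, 1 was called, the klotho gene Kl, with log2 fold changes of 0.37 in h2 (adjusted p = 0.0107), 0.25 in h4 (adjusted p = 0.0463) and 0.28 in the mean of the 3 mutants (adjusted p = 0.0139). Of all genes tested, 0.679% were called in h2, 4.55% in h4 and 1.10% in the mean. The h2 call of Kl was lost without WT replicate 2 or h2 replicate 2 (adjusted p up to 0.0954), and that in the mean without WT replicate 2 (adjusted p = 0.2). The h4 call was kept in 3 of 12 fits, those without WT replicate 1, h2 replicate 2 or h4 replicate 2, and in the others the value went down to 0.16 with adjusted p up to 0.339. With RLE size factors and with DESeq2 the h4 call of Kl was lost too, and limma on TPM lost all 3 of its calls. The 6 blood markers ranged widely, from 187–445 CPM over the h1 libraries, 184–389 CPM over h2 and 176–414 CPM over h4, against 251–568 CPM over WT, and none was called. Bone and cartilage markers summed to 17.8–21.8 CPM over the h1 libraries, 18.1–22.7 CPM over h2 and 19.8–20.7 CPM over h4, against 17.9–21.4 CPM over WT, and the osteocalcin gene Bglap did not exceed 0.141 CPM. The 5 neuronal markers summed to 3999–4091 CPM over the h1 libraries, 3885–4097 CPM over h2 and 3842–3927 CPM over h4, against 3827–3994 CPM over WT. Of these, Syt1 was lower in h4 than in h1 (-0.14, adjusted p = 0.0124) and than in h2 (-0.14, adjusted p = 0.0189). The call against h1 was lost without h1 replicate 2 or h4 replicate 1 or 3 (adjusted p up to 0.0716), and that against h2 without h2 replicate 1 or 2 or h4 replicate 1 or 3 (adjusted p up to 0.0961). How much meninges, vessel or choroid plexus each dissected brain carried was not recorded in the labels, and its part in the rises of the 10 genes was not tested.

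Other tested genes were ranked by how closely their log2 CPM followed the mean standardised level of the 10 genes. Genes without a symbol or with a Gm or Rik name were left out. Over the 12 libraries, the highest were Echs1 (0.95), Jam2 (0.93), Insig1 (0.93), Decr1 (0.92), Tnfrsf19 (0.92), Capns1 (0.92), Colgalt2 (0.92), Mtfr1l (0.92), Pla2g4e (0.91) and Klhl5 (0.91). After subtraction of genotype means they were Slco2b1 (0.97), Hspe1 (0.94), S100a16 (0.93), Myoc (0.93), Idi1 (0.91), Clec14a (0.91), Nfs1 (0.91), Fads2 (0.90), Clmp (0.89) and Wrb (0.89). No gene stood in both lists. These are Pearson correlations over libraries that share depth and genotype, picked as the highest of all genes ranked, and they carry no test.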

How the data were processed

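Whole-brain RNA from 12 mice, 3 separate mice for each of 4 genotypes, was sequenced from unstranded TruSeq RNA v2 libraries, per the labels' protocols. The authors deposited, for each library, gene tables with expected counts, TPM, FPKM, length and effective length. These were made with RSEM 1.2.12 and Bowtie2 2.2.0, per the submitters' processing notes. No build or annotation is given in the sources used here. The authors' TPM and FPKM are RSEM values scaled to length and depth, and FPKM was not used in a test. Expected counts deposited by the authors were not always whole (77.7% of values above 0 were) and were rounded before testing.

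Of 38924 genes, filterByExpr kept 16493 and removed 22431. Counts were scaled by TMM and fitted with edgeR 4.0.16 (quasi-likelihood test, R 4.3.3) with 1 mean per genotype over all 12 libraries, at a common biological coefficient of variation of 0.0531. In all, 7 contrasts were tested, and calls were made at 0.05 after Benjamini-Hochberg adjustment over all genes tested. Unless another tool is named, every adjusted p is edgeR's. SE is the absolute log2 fold change divided by the square root of the F statistic. Replicates of 1 genotype differed by more than counting error, with a chi-square of 2.3 to 4.26 per degree of freedom. The scripts were tested on simulated data.

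The authors' identifiers were named through GENCODE M21, where 37607 were found, and positions are from that annotation. Promoter windows are RefSeq's on GRCm38.p6, cut to the 250 bases before the start. The 10 genes, the gene lists and the tests were chosen with earlier results of these data known. Named were all 10 genes in every contrast, up to 4 called genes of each list with the smallest adjusted p, and the 10 genes most like the mean of the 10, with unnamed genes and Gm and Rik names left out. Alternatives were RLE size factors, no low-count filter, Xist as a covariate, limma 3.58.1 on log2(TPM + 0.1), DESeq2 1.42.0, leaving out each library, and h2 and h1 alone with or without a replicate block. Added after seeing the data were fits on the 7 libraries with Xist above 100 CPM and all alternatives for the called list genes.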

Additional observations from a re-analysis of the deposited data

Results flagged for a closer look

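The effects of 2 mutant genotypes against the same WT libraries differed, by a test of the difference itself, for 4 of the 10 genes. The direct contrast of the 2 mutants is that test, since WT cancels out. Between h4 and h1 the log2 difference was 0.49 for Col3a1 (edgeR adjusted p = 0.00117), 0.30 for Aebp1 (adjusted p = 0.00636), 0.25 for Dcn (adjusted p = 0.0215) and 0.25 for Bgn (adjusted p = 0.0481). Between h4 and h2 it was 0.31 for Col3a1 (adjusted p = 0.0383). Of all genes tested, 4.64% were called between h4 and h1 and 3.22% between h4 and h2. The 10 genes were chosen with earlier results of these data known. Only Col3a1 between h4 and h1 kept its call in all 12 fits without 1 library. Limma on TPM called none of these differences. Every h4 library was above every h1 library for these 4 genes, and every h4 library was above every h2 library for Col3a1. Because each allele is on its own strain, allele and strain cannot be told apart in these differences.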

How the results depend on the processing

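Of the members' fold changes, 1183 repeats kept their side of the threshold, 58 lost a call and 3 gained one. A further 36 uncalled values moved by more than their error, and 0 called values turned round. Some uncalled values near 0 changed sign within the 1183. Lum in h1 against WT, for instance, went from 0.02 to -0.06 without h1 replicate 3. In h2 against WT the count of members called was 1 in every alternative. In h1 against WT it was 1, and it was 0 with Xist as a covariate, with limma on TPM and in the high-Xist libraries, and 0 to 1 without 1 library. In h4 against WT it was 4, with 1 by limma on TPM and 2 to 4 without 1 library. For the mean of the 3 mutants it was 2, with 1 under the Xist covariate, limma on TPM and high-Xist libraries, and 1 to 2 without 1 library. Between h4 and h1 it was 4, with 0 by limma on TPM, 1 in the high-Xist libraries and 2 to 4 without 1 library. Between h4 and h2 it was 1, with 0 by limma on TPM, DESeq2 and high-Xist libraries, and 0 to 1 without 1 library. Fits on high-Xist libraries use fewer samples, with 1 library each in h1 and h2 that is assumed to vary like the others, and the cause of the other changes was not tested. Between h2 and h1 no member was called in any alternative. Same-numbered h1 and h2 samples deviated from their group means with correlations of -0.147, -0.112 and 0.028. These values gave no sign that the numbers pair mice, but they cannot exclude it, and h4 and WT were not checked. The replicate block gave 0 members and 204 genes, against 119 genes in the 12-library fit and 193 in h2 and h1 alone. Counts over all genes moved more. Genes called in h1 against WT were 103, with 236 without the low-count filter and 0 by limma on TPM. In h2 against WT they were 112, with 288 without the filter and 10 by limma. In h4 against WT they were 751, with 151 by limma. In the mean of the mutants they were 181, with 373 without the filter and 7 by limma. Between h2 and h1 they were 119, with 290 without the filter and 4 by limma, between h4 and h1 765, with 90 by limma, and between h4 and h2 531, with 844 without the filter and 116 by limma. With the Xist covariate they were 31 in h1, 69 in h2 and 65 in the mean. In the high-Xist libraries they were 16 in h1, 39 in h2, 76 in the mean, 23 in h2 against h1, 116 in h4 against h1 and 127 in h4 against h2. DESeq2 gave 183 in h2 against h1. Without 1 library the counts were 22 to 166 in h1, 18 to 348 in h2, 230 to 1111 in h4, 18 to 505 in the mean, 44 to 160 in h2 against h1, 313 to 896 in h4 against h1 and 251 to 619 in h4 against h2. Depth limits Lum most, at 49 counts in its lowest library.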
